A study of Mus musculus with 12 samples.

Results

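The response of MIN6 cells to glucose was examined in the 6 vehicle-treated RNA-seq libraries among the 12 libraries of the series. MIN6 is a mouse insulinoma line that secretes insulin when glucose rises. The labels give all cells as wild type. The members were chosen by the labels and column names: 3 libraries of low glucose with vehicle (2.8 mM) and 3 of high glucose with vehicle (16.8 mM), both after 18 h of vehicle. The other 6 libraries are the same glucose levels after 18 h of 100 nM TMAO (trimethylamine N-oxide). The scheme in the study shows a fast of 1 h before the glucose step and gives no duration for that step in the RNA-seq. The labels do not say whether the libraries of a condition came from separate cultures, and the study calls its RNA-seq samples biologically independent cell samples. The p-values measure the spread between these libraries.

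The vehicle libraries held between 17109949 and 20378471 counted fragments, and 16222 of 54022 genes passed the filter on low counts and were tested. Principal component 1 of the 6 libraries carried 32.1% of the variance, with low-glucose libraries from -25.5 to -8.37 and high-glucose libraries from 14.3 to 17.6. All 17 beta-cell markers exceeded 1 FPKM (fragments scaled by transcript length and library depth), with a summed level of 41300 to 44900 in low and 45100 to 46700 in high glucose. Among markers of other islet cells, Gcg stood at 208 FPKM in low and 226 FPKM in high glucose, and Ttr at 610 and 654 FPKM, while the alpha-cell factor Irx1 was at 0.0203 and 0.0454 FPKM. Marker lists of endothelial, acinar, stromal and ductal cells each summed to at most 1.69 FPKM in any library, and of 4 immune markers only Cd68 was above 0 (3.36 FPKM in low and 4.62 FPKM in high glucose). In bulk RNA, a change in the share of cells that carry a transcript and a change in the amount per cell cannot be told apart.

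In beta cells, glucose is taken up, phosphorylated and oxidised, and the rise in ATP closes potassium channels, depolarises the membrane and lets calcium in. Calcium and cAMP then activate kinases that act on factors already present in the cell, such as CREB and serum response factor. The genes switched on first are called early-response genes and encode short-lived transcription factors and phosphatases. Many of the latter remove the activating phosphates from the MAP kinases themselves, so that the signal limits itself.

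High glucose changed the RNA of 536 genes (3.3% of those tested) at an adjusted p under 0.05, by the quasi-likelihood test of edgeR, with p-values adjusted after Benjamini and Hochberg over all tested genes. Of these, 323 rose (1.99%) and 213 fell (1.31%). Among these calls the rises reached much further than the falls. At least 4-fold rises were seen for 20 genes, another 58 rose between 2- and 4-fold, 64 between 1.5- and 2-fold, and 181 by less than 1.5-fold. Thus 78 genes rose at least 2-fold (0.481% of tested genes). That count was 50 when at least 10 counts in every library were required and 29 with limma on log2(FPKM + 1). Of the called genes only Gadd45g fell at least 2-fold, 12 genes fell between 1.5- and 2-fold, and the remaining 200 fell by less than 1.5-fold. Gapdh, at a fitted log2 fold change of -2.54, was not called here (edgeR adjusted p = 0.137). It was called lower in edgeR on only the 6 vehicle libraries (0.0183) and in DESeq2 (0.00223), and its count is uncertain. The median fold of the risers was 1.42 and that of the fallers 0.815. The 3 libraries of each glucose level did not overlap for 322 of the risers and 212 of the fallers, against 9.28% of all tested genes lying wholly higher and 9.49% wholly lower in high glucose. The number of fallers depended on single libraries, at 140 without low-glucose replicate 1, 119 without low-glucose replicate 2 and 111 without high-glucose replicate 3.

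**Figure D1:**
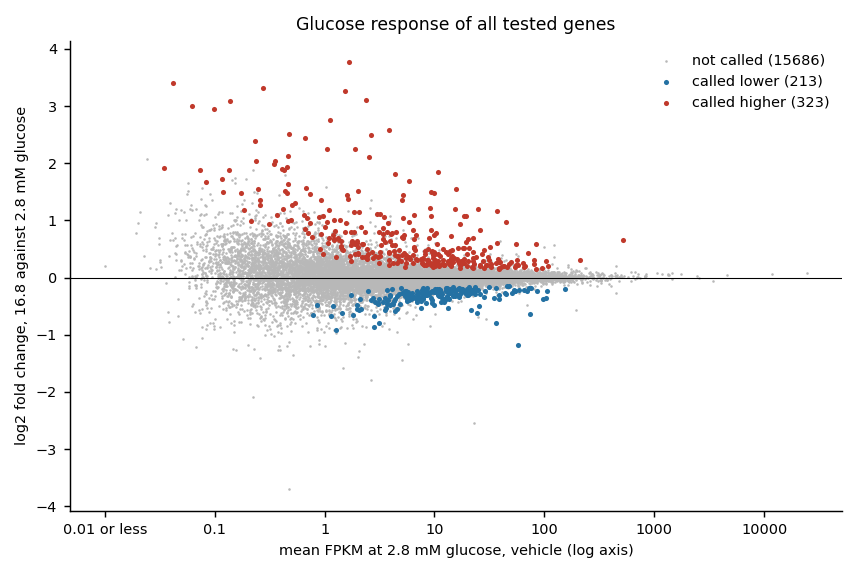
Each point is 1 of the 16222 tested genes, with the mean FPKM at 2.8 mM glucose on the x axis (log axis) and the fitted log2 fold change of 16.8 against 2.8 mM glucose in vehicle-treated cells on the y axis. Red points (323) are called higher, blue points (213) are called lower, and the red points reach 3.77 while the blue points end at -1.18.

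Rises of at least 2-fold were most frequent among genes with a low level in low glucose. Of 3480 tested genes under 1 FPKM in low glucose, 51 rose (1.47%), and 41 of those rose at least 2-fold. Of 7156 genes between 1 and 10 FPKM, 155 rose (2.17%), 30 of them at least 2-fold. Between 10 and 100 FPKM, 113 of 5173 genes rose (2.18%), 7 of them by 2-fold or more. Of the 20 risers of at least 4-fold, 9 were over 1 FPKM in low glucose. These included the small nucleolar RNA genes Gm22748 and Gm26109, with a mean of only 7.83 and 9.0 counts per vehicle library. Of the 413 genes over 100 FPKM, 4 rose and 3 fell. A small change can be called only where counts are high, so the low-level classes hold large folds partly by construction of the test. Genes called lower were rare at the bottom of this scale, with 2 of 3480 under 1 FPKM against 107 of 7156 between 1 and 10 FPKM. The classes use the low-glucose level, which is also the base of the fold. A gene low there could pass the filter on low counts through its high-glucose libraries. The classes therefore favour rises, and large ones, over falls at the bottom of the scale, so this difference is no result about the genes.

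The steepest rise of all was that of Sik1, a salt-inducible kinase that restrains the CREB coactivators. Its level was 7.22, 8.24 and 7.33 CPM (counts scaled to the TMM-adjusted library size) in low glucose and 98.1, 98.4 and 115.0 CPM in high glucose. This is a log2 fold change of 3.77 ± 0.08 (SE, n = 3 per group), with an adjusted p of 6.49e-25 from edgeR. The high-glucose libraries lay more than 10-fold above the low-glucose ones with no overlap. Of 32 tested members of the cAMP, CREB and SIK list, 4 rose, Sik1 among them, and 1 fell, against 3.3% of all tested genes called, with a median log2 fold change of 0.00 (0.00166) beside 0.00212 over all tested genes. Crem, which encodes a CREB-family factor and its short repressor forms, rose by 1.05 ± 0.11 on the log2 scale, from 21.1, 20.15 and 20 CPM to 35.1, 42.2 and 50.3 CPM. Pde4b and Pde4d, phosphodiesterases that break down cAMP, rose by 0.83 ± 0.06 and 0.80 ± 0.06. Pde10a, another phosphodiesterase, was the list's faller and was named after its values were seen. It fell by 0.17 on the log2 scale (adjusted p = 0.0418), a call lost without low-glucose replicate 1 (adjusted p = 0.111), 2 (0.105) or 3 (0.131) or high-glucose replicate 2 (0.0578) or 3 (0.333), and a second member was called lower without high-glucose replicate 1.

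Among the gene lists, that of early-response transcription factors had the most rises. The lists were chosen with earlier results of these data known. For every list, the counts and medians set beside all tested genes therefore describe its members and do not test an enrichment. Of 32 tested members of the early-response transcription factor list, 19 rose and 2 fell, against 1.99% higher and 1.31% lower of all tested genes. At least 2-fold rises numbered 12, against 0.481% of all tested genes, and the median log2 fold change was 0.456 beside 0.00212 over all tested genes. In the nuclear receptor family NR4A, whose members act without a known ligand, all 3 genes rose. Nr4a1 went from 6.06, 6.51 and 5.28 CPM in low glucose to 48.9, 45.2 and 60.4 CPM in high glucose (log2 fold change 3.11 ± 0.15, adjusted p = 5.20e-09). Nr4a2 went from 18.5, 17.4 and 17.7 CPM to 56.8, 62.4 and 69.5 CPM (1.81 ± 0.07, adjusted p = 5.47e-18). Nr4a3 was lowest of the family at 1.32, 1.78 and 1.13 CPM and reached 6.44, 6.65 and 9.42 CPM (2.40 ± 0.20, adjusted p = 6.14e-10). In each gene the lowest high-glucose library stood clear of the highest low-glucose library.

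The FOS genes encode the partners of JUN proteins in the AP-1 factor. Fos rose from 3.11, 2.41 and 2.37 CPM to 16.1, 18.8 and 18.7 CPM (log2 fold change 2.76 ± 0.14, adjusted p = 2.49e-15). Fosl2 was the most abundant, going from 26.04, 25.19 and 25.61 CPM to 134.9, 130.7 and 169.5 CPM (2.50 ± 0.08, adjusted p = 2.34e-14), while Fosb went from 2.43, 3.20 and 2.97 CPM to 10.3, 9.91 and 12.7 CPM (1.93 ± 0.15). Fosl1, the remaining FOS gene, was not called (0.23 ± 0.22, adjusted p = 0.744) and its groups overlapped. The JUN genes also differed among themselves, and Jund was not called (-0.08 ± 0.13, adjusted p = 0.861). Junb rose by 1.203 ± 0.06, from 55.8, 55.9 and 59.1 CPM to 135.5, 121.9 and 135.9 CPM, and shares its locus with Prdx2 on the opposite strand. Jun itself fell by 0.25 on the log2 scale (adjusted p = 0.0282), from 67.8, 65.2 and 64.6 CPM to 58.5, 53.2 and 55.0 CPM. Klf6, a zinc-finger factor, was the other faller of this list (by 0.37 on the log2 scale, adjusted p = 0.00101). The call of Jun was lost without low-glucose replicate 1 (adjusted p = 0.131) or 2 (0.0830) or high-glucose replicate 2 (0.136) or 3 (0.117), while that of Klf6 was kept without each library in turn.

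Egr1, a zinc-finger factor induced by MAP kinase and calcium signals, rose from 16.8, 18.4 and 16.8 CPM to 105.8, 100.1 and 107.6 CPM, a log2 fold change of 2.59 ± 0.07 (adjusted p = 1.06e-22). Its high-glucose values lay within 8 CPM of each other. Cebpd, a bZIP factor, rose from 6.54, 5.93 and 5.01 CPM to 56.1, 48.5 and 64.0 CPM (3.26 ± 0.10, adjusted p = 2.07e-20). The locus of Cebpd overlaps Spidr on the opposite strand, and strand was not stated for the counting, so part of its count could belong to Spidr. Smaller rises in the same list were those of Klf4 (1.35 ± 0.08), Maff (0.93 ± 0.06), Cebpb (0.52 ± 0.08) and Atf3 (0.40 ± 0.10). Atf3 lost its call without low-glucose replicate 1 (adjusted p = 0.0566) or 2 (0.145) or high-glucose replicate 2 (0.101) or 3 (0.127), and leaving out 1 library left 16 or 17 risers in the list.

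**Figure D2:**
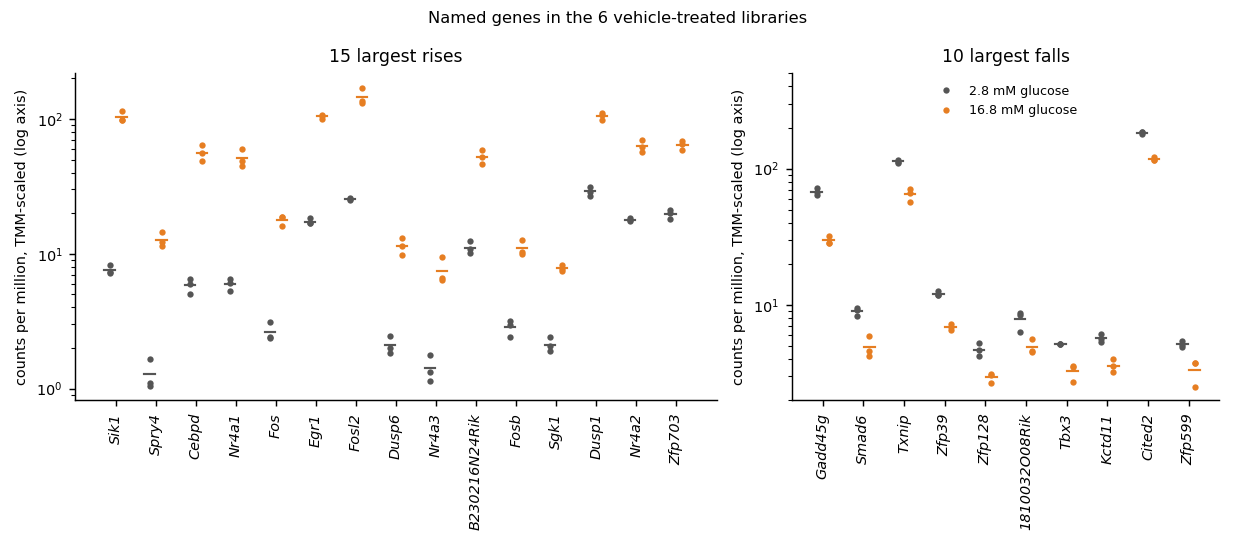
Points are the 6 vehicle-treated libraries (grey, 2.8 mM glucose, and orange, 16.8 mM glucose; 3 each) and short lines are their means, in TMM-scaled CPM on a log axis, for the 15 genes with the largest rises and the 10 with the largest falls. In every gene shown the 3 libraries of one glucose level lie wholly above those of the other, as the rule for naming these genes requires, and the gap is wider among the rises (Sik1 3.77) than the falls (Gadd45g -1.18 on the log2 scale).

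Of 21 tested feedback inhibitors of MAP kinase signalling, 11 rose, none fell and 10 were not called, against 1.99% of all tested genes higher, with a median log2 fold change of 0.275 beside 0.00212 over all tested genes. Spry4, a Sprouty protein that blocks signalling from growth factor receptors to Ras and MAP kinase, went from 1.05, 1.10 and 1.67 CPM to 11.4, 12.2 and 14.6 CPM (log2 fold change 3.31 ± 0.21, adjusted p = 1.40e-10). Spry1 rose by 1.45 ± 0.12 and Spry2 by 0.66 ± 0.18, and the call of Spry2 was lost without low-glucose replicate 1 (adjusted p = 0.107) or 2 (0.160) or high-glucose replicate 1 (0.0637), 2 (0.0980) or 3 (0.108). Among the dual-specificity phosphatases, which dephosphorylate MAP kinases, Dusp6 rose from 1.845, 2.467 and 1.995 CPM to 9.83, 11.4 and 13.2 CPM (2.44 ± 0.16, adjusted p = 7.64e-13). Dusp1 rose from 31.4, 28.9 and 27.0 CPM to 106.4, 97.8 and 110.4 CPM (1.85 ± 0.06, adjusted p = 2.75e-20). Dusp4 was the phosphatase with the highest level and rose from 104.1, 103.9 and 95.7 CPM to 229.0, 213.9 and 238.0 CPM (1.164 ± 0.05, adjusted p = 6.03e-17). Dusp5, Dusp10, Dusp8 and Dusp3 rose by 1.08, 1.07, 0.28 and 0.25 on the log2 scale. The risers thus included the nuclear phosphatases Dusp1, Dusp4 and Dusp5 and the cytoplasmic ERK phosphatase Dusp6. Errfi1, an inhibitor of the EGF receptor, rose from 55.6, 53.4 and 56.0 CPM to 114.5, 128.3 and 136.7 CPM (1.202 ± 0.06).

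Of 23 tested regulators of RNA stability and growth that belong to the early response, 11 rose, 1 fell and 11 were not called, against 3.3% of all tested genes called, with a median log2 fold change of 0.207. Sgk1, a kinase related to Akt, rose from 2.06, 1.89 and 2.43 CPM to 7.47, 8.28 and 7.65 CPM (1.88 ± 0.18, adjusted p = 6.21e-09). Btg2 and Tob1, antiproliferative proteins that bring the CCR4-NOT deadenylase to RNA, rose by 0.78 ± 0.06 and 0.61 ± 0.06. Zfp36, which binds AU-rich elements and speeds RNA decay, rose by 0.80 ± 0.12, from 5.48, 5.62 and 4.91 CPM to 9.18, 9.81 and 8.83 CPM. Trib1 and Plk3 rose by 0.79 ± 0.07 and 0.58 ± 0.05. Rhob, a small GTPase, was the member that fell (log2 fold change -0.24, adjusted p = 0.0321). The call of Rhob was lost without low-glucose replicate 1 (adjusted p = 0.240) or 2 (0.122) or high-glucose replicate 2 (0.0770) or 3 (0.217).

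In the list of insulin receptor, Akt and Foxo signalling, 2 of 33 tested members rose and none fell, against 1.99% of all tested genes higher and 1.31% lower (median log2 fold change 0.0132, beside 0.00212 over all tested genes). Irs2, the substrate through which the insulin and IGF-1 receptors reach PI 3-kinase, rose from 99.8, 97.0 and 100.6 CPM to 305.7, 264.1 and 300.2 CPM, a log2 fold change of 1.55 ± 0.06 (adjusted p = 9.01e-18). Pik3r1, a regulatory subunit of PI 3-kinase, rose from 97.5, 102.8 and 97.4 CPM to 154.0, 159.5 and 187.6 CPM (0.75 ± 0.07, adjusted p = 2.12e-07). In both genes every high-glucose library lay above every low-glucose library.

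Of 26 tested transcription factors of the beta cell, 6 rose, 1 fell and 19 were not called, against 3.3% of all tested genes called, with a median log2 fold change of 0.0387. Mafa, which drives the insulin gene, had the largest gain in FPKM of all called genes. It went from 602.4, 566.4 and 535.8 CPM to 994.4, 768.5 and 934.7 CPM, or from 524 ± 31.5 FPKM to 828 ± 108 FPKM (SD, n = 3). Its log2 fold change was 0.66 ± 0.11 (edgeR adjusted p = 0.0126), and the call was lost without low-glucose replicate 2 (adjusted p = 0.0569), low-glucose replicate 3 (0.0546) or high-glucose replicate 3 (0.0582), while the groups did not overlap. Neurod1, a bHLH activator of the insulin gene, rose from 233.7, 224.2 and 230.7 CPM to 327.1, 342.2 and 360.8 CPM (0.58 ± 0.04, adjusted p = 4.62e-11). Nkx2-2, a homeobox factor whose locus overlaps the antisense gene 6430503K07Rik, rose from 144.2, 141.1 and 147.4 CPM to 172.0, 169.0 and 180.9 CPM (0.27 ± 0.04, adjusted p = 0.000177). Zfp703, a zinc-finger cofactor, rose from 21.0, 20.1 and 18.3 CPM to 64.9, 58.6 and 68.3 CPM (1.69 ± 0.08, adjusted p = 2.18e-16). Insm1 (0.23, adjusted p = 0.04998) and Tshz1 (0.18) were the smallest risers, and Mnx1 fell by 0.27 on the log2 scale (adjusted p = 0.0353). The count of 6 risers dropped to 3 without low-glucose replicate 2 or high-glucose replicate 3, the fall of Mnx1 was lost without low-glucose replicate 1 (adjusted p = 0.168), 2 (0.0947) or 3 (0.0691) or high-glucose replicate 2 (0.134) or 3 (0.285), the rise of Insm1 without any library but high-glucose replicate 2 (adjusted p from 0.0741 to 0.190), and Tshz1 was lost without low-glucose replicate 2 (adjusted p = 0.119) or high-glucose replicate 3 (0.0545).

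The genes of insulin itself gave no call. Ins2 was at 34260, 32300 and 31120 CPM in low and 34320, 35170 and 34040 CPM in high glucose (log2 fold change 0.08 ± 0.05, adjusted p = 0.489). Ins1 was at 4780, 4658 and 4536 CPM and then 4747, 5014 and 4606 CPM (0.04 ± 0.06, adjusted p = 0.840). The ranges of the groups overlapped in both genes. The 95% intervals of the difference ran from -0.0138 to 0.182 for Ins2 and from -0.0766 to 0.157 for Ins1 on the log2 scale. Of 16 tested islet hormones and granins, Vgf alone was called, against 3.3% of all tested genes, and it rose from 649.1, 637.1 and 601.9 CPM to 816.0, 727.6 and 796.5 CPM (0.31 ± 0.05, adjusted p = 7.72e-05). Vgf encodes a granin-like precursor of secreted peptides. None of the 25 tested genes of prohormone processing and insulin granules was called by edgeR, DESeq2 or limma, and 1 had an unadjusted p under 0.05 in edgeR.

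Among genes of glucose entry and membrane excitability, 1 of 26 tested members was called, a share near the 3.3% of all tested genes. The 95% interval of the log2 fold change was -0.0222 to 0.153 for the transporter Slc2a2, -0.0427 to 0.151 for the channel subunit Kcnj11 and -0.0208 to 0.194 for its partner Abcc8. The member that rose was Gem, a small GTP-binding protein that inhibits voltage-gated calcium channels. Gem went from 22.7, 19.5 and 21.1 CPM to 54.9, 56.9 and 65.4 CPM (1.48 ± 0.08, adjusted p = 1.97e-15), and its groups were well apart. Rgs2, which switches off G protein signals, rose by 0.74 ± 0.07 as the called member of 13 tested regulators of G protein signalling (3.3% of all tested genes were called), and a second was called higher without high-glucose replicate 1.

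In 4 lists of metabolism there was no call with edgeR on all 12 libraries, where a share of 3.3% was called over all tested genes. None of the 26 tested genes of glycolysis and lactate, 30 of cholesterol synthesis and uptake, 26 of antioxidant defence and 38 of the respiratory chain passed, with 2, 4, 7 and 1 of them at an unadjusted p under 0.05. DESeq2 called 1 glycolysis gene lower and no other gene of these lists, and limma called none. With edgeR on only the 6 vehicle libraries, 1 gene each of glycolysis, cholesterol and antioxidant defence was called higher and 1 of glycolysis lower, and 1 cholesterol gene was also called higher with no filter on low counts, with the replicate block, and without high-glucose replicate 1 or low-glucose replicate 3. The glycolysis gene called lower is Gapdh, which was at 102.2, 112.5 and 68.6 CPM in low glucose and at 18.4, 15.7 and 14.4 CPM in high glucose. Its fitted log2 fold change of -2.54 ± 0.72 had an adjusted p of 0.137 in edgeR, 0.0183 in edgeR on the 6 libraries and 0.00223 in DESeq2. The TMAO libraries of Gapdh ran from 22.6 to 173.9 CPM in low and from 89.7 to 179.6 CPM in high glucose, so replicates of one condition differed by several fold. Gapdh is known to have many near-identical processed pseudogenes and overlaps Iffo1 on the opposite strand, so its count is given as uncertain. The part of these in the spread was not tested. Slc3a2, the heavy chain of amino acid transporters, rose by 0.30 ± 0.05 (adjusted p = 5.73e-05) and Slc38a4, another amino acid transporter, by 0.17 ± 0.04. Slc38a4 lost its call without low-glucose replicate 2 (adjusted p = 0.147), low-glucose replicate 3 (0.0639), high-glucose replicate 2 (0.0988) or high-glucose replicate 3 (0.104). They were the 2 called genes of 29 tested in the list of amino acid supply and tRNA charging, against 3.3% of all tested genes, and Slc3a2 alone was called in those 4 fits. In that list 27 of 29 genes had a log2 fold change above 0, against 8230 of 16222 tested genes, with a median of 0.105 beside 0.00212, most of them without a call.

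The falls had other members. Gadd45g, a stress-inducible gene of growth arrest, fell furthest of the called genes, from 71.7, 64.0 and 67.4 CPM to 32.3, 28.5 and 28.7 CPM (log2 fold change -1.18 ± 0.08, adjusted p = 1.01e-11). Its relative Gadd45a went the other way, from 80.0, 78.6 and 78.7 CPM to 154.7, 141.3 and 172.3 CPM (0.98 ± 0.06, adjusted p = 1.18e-13). These 2 genes of one family, each with separate groups, thus moved in opposite directions. Txnip, a thioredoxin-binding arrestin that limits glucose uptake, fell from 115.7, 112.6 and 110.8 CPM to 66.5, 70.3 and 57.2 CPM (-0.80 ± 0.06, adjusted p = 3.65e-10). It was the only called gene among 23 tested members of the ChREBP list, against 3.3% of all tested genes called, and the list's median log2 fold change was -0.0252, and a second member was called lower when low-glucose replicate 3 was left out. ChREBP is the factor that glucose metabolites activate and that is known to induce Txnip.

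Smad6, an inhibitor of BMP signalling and itself a target of it, fell from 9.49, 9.13 and 8.36 CPM to 5.91, 4.58 and 4.24 CPM (log2 fold change -0.87 ± 0.15, adjusted p = 0.000245). Smad9, a BMP-activated Smad, fell from 68.5, 69.1 and 66.0 CPM to 51.1, 54.4 and 52.2 CPM (-0.37 ± 0.06, adjusted p = 8.23e-05). These were the called genes of 31 tested members of BMP and TGF-beta signalling, whose median was -0.0728, against 3.3% of all tested genes called. Leaving out high-glucose replicate 1 added 1 riser to that list. Cited2, a cofactor that binds CBP and p300, fell from 186.1, 178.8 and 185.0 CPM to 121.2, 116.4 and 115.2 CPM (-0.64 ± 0.06, adjusted p = 1.43e-08). Sesn1, a sestrin that restrains mTORC1, fell by 0.30 on the log2 scale, and Ulk1, the kinase that starts autophagy, rose by 0.32 ± 0.06. With Cited2 these were the called genes among 24 tested in the AMPK and nutrient stress list, and Gadd45a, Gadd45g and Sesn1 were those among 19 tested genes of growth arrest and p53 targets, against the same 3.3% of all tested genes.

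Tbx3 (log2 fold change -0.66, edgeR adjusted p = 0.0176), a T-box repressor, and Kctd11 (-0.66, edgeR adjusted p = 0.00947) were among the 10 largest falls but rest on low counts. Tbx3 was at 5.22, 5.20 and 5.18 CPM in low and 3.49, 3.60 and 2.71 CPM in high glucose. Its call was lost without low-glucose replicate 1 (adjusted p = 0.0632), low-glucose replicate 2 (0.0674) or high-glucose replicate 3 (0.15), and that of Kctd11 without low-glucose replicate 2 (0.0766) or high-glucose replicate 1 (0.0707). By FPKM, the largest losses among called genes after Gadd45g and Cited2 were those of the tubulins Tubb3 (103 ± 3.20 to 79.5 ± 7.67 FPKM) and Tubb4b (154 ± 7.24 to 134 ± 7.67 FPKM) and of Plekhg6 (96.5 ± 5.54 to 74.48 ± 4.403 FPKM). Tubb4b, at a log2 fold change of -0.20, lost its call without low-glucose replicate 1 (adjusted p = 0.186) or 2 (0.136) or high-glucose replicate 2 (0.0560) or 3 (0.266).

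The core clock list gave 2 rises and 1 fall among 20 tested genes, against 3.3% of all tested genes called. Per1, a repressor of the CLOCK and BMAL1 factors, rose from 48.9, 55.0 and 51.2 CPM to 124.4, 116.2 and 121.0 CPM (log2 fold change 1.22 ± 0.06, adjusted p = 1.21e-16). Per2 rose from 25.6, 27.2 and 24.5 CPM to 41.7, 37.8 and 35.5 CPM (0.57 ± 0.09, adjusted p = 0.000150). Nr1d1, a nuclear receptor of the clock that overlaps Thra on the opposite strand, fell by 0.29 on the log2 scale (adjusted p = 0.00991). The fall of Nr1d1 was lost without low-glucose replicate 2 (adjusted p = 0.0994) or high-glucose replicate 3 (0.102), and a second faller appeared without high-glucose replicate 1.

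Of 26 tested genes of NF-kB and cytokine signalling, 4 rose and 2 fell, against 3.3% of all tested genes called, and each change was under 1.5-fold. Relb, Nfkb2, Rel and Nfkbiz rose by 0.46, 0.47, 0.37 and 0.29 on the log2 scale, and the inhibitor Nfkbia and the factor Irf1 fell by 0.38 and 0.26, and the median of the list was -0.00435. The risers were 2 without low-glucose replicate 3, where Nfkb2 (adjusted p = 0.0516) and Nfkbiz (0.0936) lost their calls. Nfkb2 was also lost without low-glucose replicate 1 (0.0582) or high-glucose replicate 3 (0.0555) and Nfkbiz without high-glucose replicate 2 (0.0999), and Irf1 was lost without high-glucose replicate 3 (adjusted p = 0.0533). The unfolded protein response list had 3 called genes of 30 tested, against 3.3% of all tested genes. Ppp1r15a, the phosphatase subunit that reverses the block of translation, rose by 0.50 ± 0.07 and the ER chaperone cofactor Dnajb9 by 0.24 ± 0.05, while Ddit3, the factor CHOP, fell by 0.18 on the log2 scale. Dnajb9 was lost without high-glucose replicate 3 (adjusted p = 0.0668). The call of Ddit3, which overlaps Mars on the opposite strand, was lost without any one of the 3 low-glucose libraries or high-glucose replicate 1 or 2 (adjusted p from 0.0655 to 0.178). Bag3 rose by 0.41 ± 0.08 as the called member of 25 heat shock genes, a share near the 3.3% of all tested genes. Of 30 tested cell cycle genes 3 were called, against the same share. The mitotic kinases Aurka and Plk1 fell by 0.28 and 0.19 and Ccnd3, a cyclin whose locus overlaps Bysl on the opposite strand, rose by 0.41. Plk1 was lost without low-glucose replicate 1 (adjusted p = 0.192) or 2 (0.145) or high-glucose replicate 2 (0.171) or 3 (0.242), and Ccnd3 without low-glucose replicate 2 (0.154) or 3 (0.0554) or high-glucose replicate 1 (0.0676) or 3 (0.0843).

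**Figure D3:**
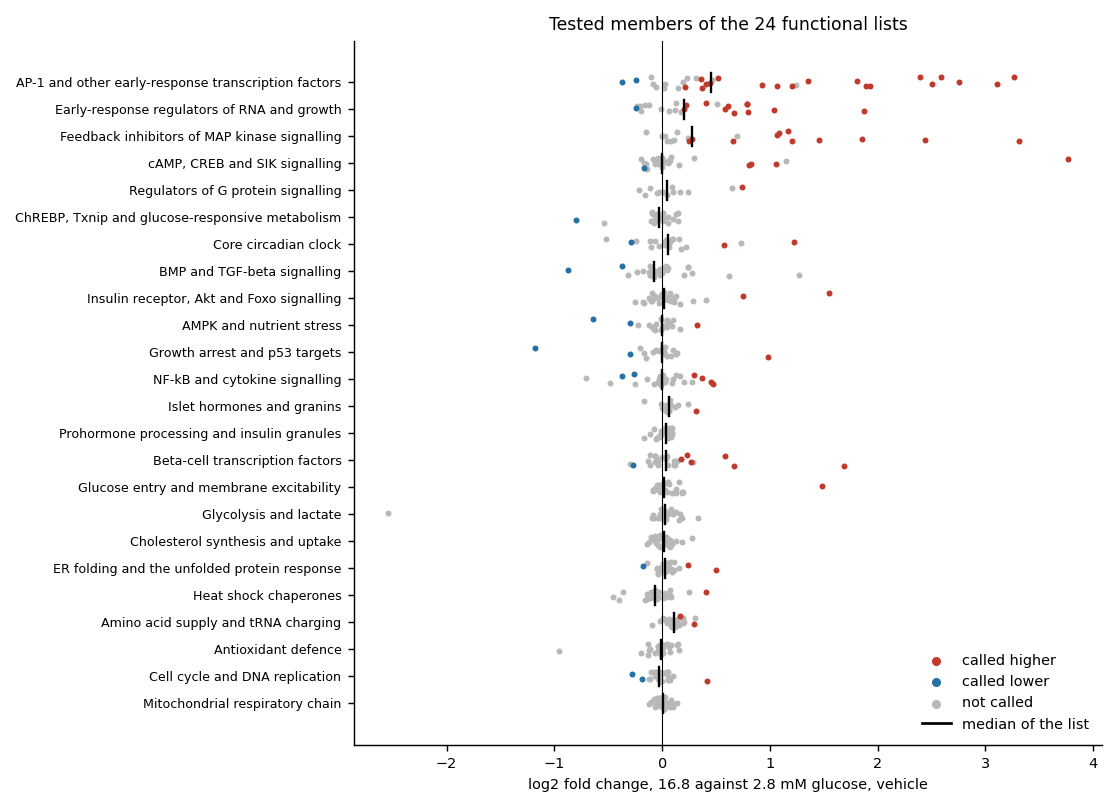
Each row is 1 of the 24 functional lists and each point a tested gene, placed by its log2 fold change of 16.8 against 2.8 mM glucose in vehicle-treated cells (red, called higher; blue, called lower; grey, not called; black line, median; the vertical spread of points has no meaning). The medians of the 3 early-response and feedback lists (0.456, 0.207 and 0.275) lie furthest to the right, and most other lists centre near 0. The lists were chosen with earlier results of these data known. The grey point at -2.54 is Gapdh.

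Transcription factors were common on both sides. The deposited table assigns a transcription factor family to 1028 of the tested genes (6.34%), and to 49 of the risers (15.2%) and 58 of the fallers (27.2%). The families were of different kinds, and they were compared after their values were seen. In the bZIP family, to which FOS, JUN, CREM and MAF proteins belong, 12 of 40 tested genes rose and 2 fell. In the RHD family, 3 of 10 tested genes rose and none fell, namely Nfkb2, Relb and Rel among 5 NF-kB genes, while the other 5 are NFAT genes. C2H2 zinc-finger genes made up most of the fallers with a family, with 34 of 436 tested genes lower (7.8%, against 1.31% of all tested genes) and 13 higher (2.98%, against 1.99%). The share lower was larger in the Homeobox family (5 of 56, 8.93%) and in the THR-like family (2 of 14, 14.3%). The fallers included Zfp39 (log2 fold change -0.80 ± 0.12, from 11.8, 12.7 and 11.9 CPM to 6.61, 6.95 and 7.30 CPM), Zfp128 (-0.68 ± 0.17) and Zfp599 (-0.62 ± 0.16). Of the 436 tested genes, 326 (74.8%) had a log2 fold change below 0, against 49.3% of all tested genes, and 110 did not, Egr1 and Klf4 among them. The family median was -0.117. Zfp128 lost its call without low-glucose replicate 3 (adjusted p = 0.0838) or high-glucose replicate 1 (0.0772), and Zfp599 without low-glucose replicate 1 (0.0591), 2 (0.0871) or 3 (0.102) or high-glucose replicate 1 (0.215). Many zinc-finger genes lie in clusters of similar copies, so that reads could be divided between them in the counting. The part of this in the values of the family was not tested.

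**Figure D4:**
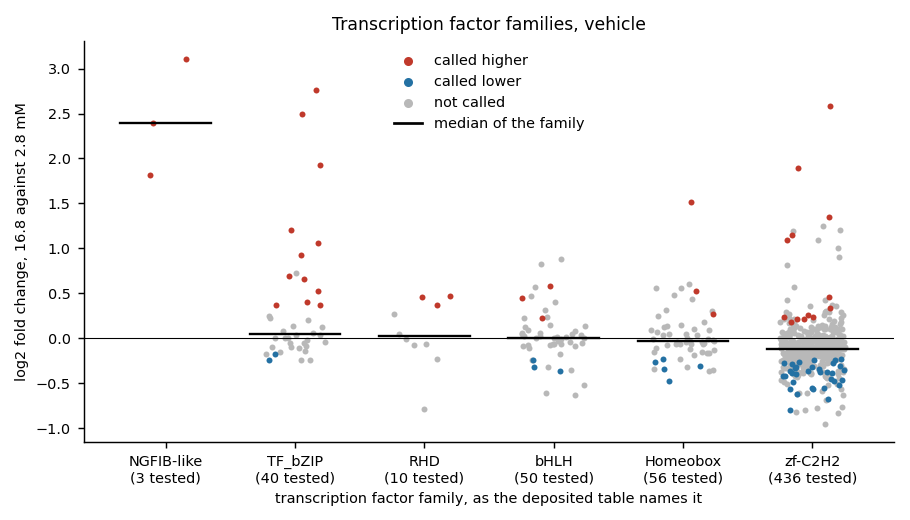
Points are tested genes of 6 transcription factor families, named as in the deposited table, by log2 fold change of 16.8 against 2.8 mM glucose in vehicle-treated cells (red, called higher; blue, called lower; grey, not called; black line, family median; the sideways spread has no meaning). All 3 NGFIB-like (NR4A) genes are red, the bZIP family holds 12 red points, and the zf-C2H2 family of 436 genes centres at -0.117 with 34 blue points.

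The steep risers had a lower median span and exon number than all tested genes. Genes that rose at least 2-fold had a median genomic span of 5632 bases and 3 exons, and 58.7% of them had at most 3 exons. For the risers under 1.5-fold these values were 19532 bases, 6 exons and 26.9%, and for all tested genes 17809 bases, 7 exons and 27.1%. Fallers had a median span of 17849 bases and 5 exons. The deposited biotypes list 60.3% of the risers of 2-fold or more as protein-coding, and the 47 protein-coding ones had a median span of 8883 bases and 4 exons, against 24278 bases and 9 exons for all tested protein-coding genes.

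Of 1831 tested non-coding genes, 45 rose (2.46%, against 1.99% of all tested genes) and 7 fell (0.382%, against 1.31%), and 35 of the risers overlap another gene, 23 on the opposite and 12 on the same strand. D030047H15Rik (antisense to Ttyh1), Gm28294 (antisense to Ptprn) and A730081D07Rik (antisense to Gcnt2) had fitted rises of at least 4-fold on a mean of 12, 5.17 and 14.8 counts per vehicle library. At such counts the fitted fold depends on the model's prior count. B230216N24Rik was the exception in depth, at 10.1, 12.4 and 10.8 CPM in low and 46.1, 52.7 and 59.1 CPM in high glucose (log2 fold change 2.24 ± 0.10, adjusted p = 1.16e-12), and it lies within Pam on the same strand. Pam averaged 8052 counts per library against 617 for B230216N24Rik, and was at 424.4, 425.8 and 418.1 CPM in low and 397.1, 436.7 and 423.0 CPM in high glucose. Of the 7 non-coding fallers, Snhg12 (-0.44) and Zfas1 (-0.35) are known as host genes of small nucleolar RNAs. Without low-glucose replicate 3, Zfas1 (adjusted p = 0.0686), 4632415L05Rik (0.0526) and Gm2861 (0.196) lost their calls, which left 4 of the 7, and 5 of the 7 lost theirs without at least 1 library.

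Promoters were read for sequence that the early response is known to use. RefSeq windows (build GRCm38.p6, all windows of a gene counted together, from 250 bases before to 50 bases after each start, 32851 windows of 27025 genes) matched 211 of the 323 risers, 174 of the 213 fallers and 10777 tested genes. The full cAMP response element (CRE) TGACGTCA was found, on either strand, in 10.9% of risers, 2.3% of fallers, 3.69% of all tested genes and 2.03% of the whole table. Its core TGACG, which every full CRE holds once on each strand, was found in 53.1% of risers, 29.3% of fallers and 35% of tested genes. Risers thus had the higher CRE share and fallers the lower. The share of the AP-1 site TGANTCA (5.21% of risers, 4.02% of fallers, 5.98% of tested genes) and of the CArG box of serum response factor (1.9%, 1.15% and 1.68%) differed less. For the NF-kB site, 10.9% of risers, 3.45% of fallers and 6.13% of tested genes had a match. E-boxes (CACGTG) were in 16.6%, 10.3% and 11.6%, Foxo sites (TGTTTAC) in 2.84%, 3.45% and 3.23%, and TATA boxes (TATAAA) in 9.95%, 8.62% and 8.53%. The matched promoters had a median GC content of 64.7% in risers, 64.2% in fallers and 62.0% in all tested genes. These shares are descriptions without a test, a match is not a site in use, and the part of base composition was not tested.

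**Figure D5:**
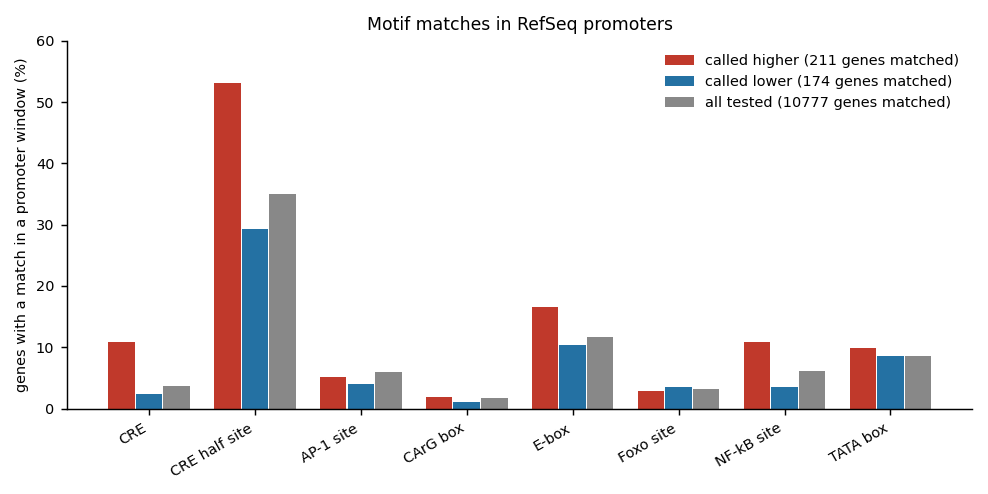
Bars give the percentage of genes with at least 1 match to each motif, on either strand, in a RefSeq promoter window (any window of the gene), for genes called higher (211 matched), called lower (174 matched) and all tested (10777 matched), with an axis from 0. The red bars stand above both others for the CRE (10.9%), its core TGACG (53.1%), the NF-kB site (10.9%) and the E-box (16.6%), and slightly so for the TATA box (9.95%) and the CArG box (1.9%).

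The promoters of 7 risers, 6 of them with a core, and of the fallers Tubb4b, with cores, and Txnip, without, are printed to show where cores lie. They were chosen for their cores. Letters run 5′ to 3′ on the gene's own strand, each sequence ends at or before the start of the gene in the deposited table, and capitals mark the core TGACG, or CGTCA where it is on the other strand, with 8 capitals in a row where a full CRE stands.
Nr4a1, chr15:101266596-101266845, plus strand: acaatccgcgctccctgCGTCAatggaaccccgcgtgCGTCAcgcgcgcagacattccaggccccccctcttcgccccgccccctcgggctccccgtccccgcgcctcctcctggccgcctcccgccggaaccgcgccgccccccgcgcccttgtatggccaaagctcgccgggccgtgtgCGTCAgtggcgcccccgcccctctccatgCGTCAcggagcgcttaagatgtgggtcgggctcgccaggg
Nr4a2, chr2:57124004-57124253, minus strand: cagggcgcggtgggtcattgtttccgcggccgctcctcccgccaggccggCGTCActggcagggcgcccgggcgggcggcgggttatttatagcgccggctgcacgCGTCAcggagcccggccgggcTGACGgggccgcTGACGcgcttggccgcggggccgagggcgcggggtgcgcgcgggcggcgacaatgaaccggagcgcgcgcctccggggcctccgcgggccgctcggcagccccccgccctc
Nr4a3, chr4:48045055-48045152, plus strand: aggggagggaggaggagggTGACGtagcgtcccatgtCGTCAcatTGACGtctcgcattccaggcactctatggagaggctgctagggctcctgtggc
Fos, chr12:85473640-85473889, plus strand: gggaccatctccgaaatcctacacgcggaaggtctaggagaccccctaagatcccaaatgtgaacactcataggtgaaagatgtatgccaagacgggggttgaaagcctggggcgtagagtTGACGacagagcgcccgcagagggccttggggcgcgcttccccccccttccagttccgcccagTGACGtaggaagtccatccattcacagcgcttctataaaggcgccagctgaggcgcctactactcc
Dusp1, chr17:26508520-26508722, minus strand: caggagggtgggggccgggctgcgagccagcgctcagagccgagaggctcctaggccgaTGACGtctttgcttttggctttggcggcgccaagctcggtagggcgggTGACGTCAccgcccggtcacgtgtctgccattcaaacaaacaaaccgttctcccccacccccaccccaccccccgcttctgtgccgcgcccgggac
Btg2, chr1:134079156-134079405, minus strand: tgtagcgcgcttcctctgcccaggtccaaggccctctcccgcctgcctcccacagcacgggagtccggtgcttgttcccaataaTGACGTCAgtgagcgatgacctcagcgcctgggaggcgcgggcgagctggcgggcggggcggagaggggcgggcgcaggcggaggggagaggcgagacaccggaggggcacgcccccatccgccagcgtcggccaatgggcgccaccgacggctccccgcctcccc
Dusp6, chr10:99262981-99263230, plus strand: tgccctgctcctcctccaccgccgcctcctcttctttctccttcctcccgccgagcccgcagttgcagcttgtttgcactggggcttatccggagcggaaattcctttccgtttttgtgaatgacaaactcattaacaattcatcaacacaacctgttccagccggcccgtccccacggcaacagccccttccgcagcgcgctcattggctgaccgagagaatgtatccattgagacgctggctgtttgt
Tubb4b, chr2:25224703-25224952, minus strand: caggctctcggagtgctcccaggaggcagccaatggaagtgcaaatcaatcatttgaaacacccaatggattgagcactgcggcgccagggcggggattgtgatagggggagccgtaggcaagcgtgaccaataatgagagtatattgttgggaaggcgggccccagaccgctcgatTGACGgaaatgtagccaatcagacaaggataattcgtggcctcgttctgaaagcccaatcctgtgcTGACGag
Txnip, chr3:96557707-96557956, plus strand: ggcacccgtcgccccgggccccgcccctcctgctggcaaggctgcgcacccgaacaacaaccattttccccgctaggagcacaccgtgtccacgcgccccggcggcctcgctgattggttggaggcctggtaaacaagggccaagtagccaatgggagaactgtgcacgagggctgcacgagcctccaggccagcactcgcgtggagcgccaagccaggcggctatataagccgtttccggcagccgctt
Nr4a1 and Nr4a2 each hold 4 cores and no full CRE in these bases, Nr4a3 holds 3, and Fos 2. Dusp1 and Btg2 each hold 1 full CRE, while Tubb4b holds 2 cores, and Dusp6 and Txnip have none. Among other risers described above, Sgk1, Irs2, Pik3r1, Errfi1, Neurod1, Gadd45a, Bag3, Ulk1 and Slc38a4 have none either. In all, 10 of 24 named risers with a window had no core in such bases, and 13 of 15 named fallers had none. Sik1, Cebpd and Egr1 were not matched.

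Full CREs were found in 23 risers in all, among them Dusp1 (log2 fold change 1.85), Errfi1 (1.202), Maff (0.93), Btg2 (0.78), Cbx8 (0.70), Zfand2a (0.53) and Ppp1r15a (0.50). All windows of a gene are counted here, and in the window read as above Errfi1 held no core. The 4 fallers with a full CRE were Slx4ip, Pex13, Dcun1d3 and Trak1, at log2 fold changes from -0.39 to -0.16. The adjusted p of these named risers ran from 2.75e-20 to 2.84e-06 in edgeR.

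The same step of glucose in TMAO-treated cells changed 591 genes (3.64% of those tested), and 340 genes were called in the same direction with both treatments. These are 63.4% of the genes called with vehicle and 57.5% of those called with TMAO. The 2 responses use different libraries and one common estimate of the spread. Called higher with TMAO as well were 18 of the 20 risers of at least 4-fold, 41 of the 58 from 2- to 4-fold, 51 of the 64 from 1.5- to 2-fold and 120 of the 181 under 1.5-fold. Of the 213 fallers 110 were called with TMAO. All but 2 of the 323 risers had the same sign with TMAO, as had 212 of the fallers. The log2 fold changes with vehicle and with TMAO were 3.77 and 3.79 for Sik1, 3.11 and 2.97 for Nr4a1, 1.55 and 1.32 for Irs2, -1.18 and -1.08 for Gadd45g and -0.80 and -0.72 for Txnip.

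No gene (0.0% of those tested) differed in its glucose response between the treatments in edgeR at an adjusted p under 0.05, with 545 genes at an unadjusted p under 0.05, while DESeq2 called 1 and limma 0. A few genes were called by edgeR with no filter on low counts or with some libraries left out, as given in the last section. The lowest adjusted p, 0.188, was that of Egr1, whose log2 fold change was 2.59 with vehicle and 2.09 with TMAO. In low glucose Egr1 was at 23.9, 27.5 and 23.2 CPM with TMAO, above the 16.8 to 18.4 CPM with vehicle, and in high glucose at 113.3, 104.3 and 100.1 CPM, overlapping the vehicle range. Spry4 (3.31 with vehicle and 2.49 with TMAO) and Dusp6 (2.44 and 1.71) had the smaller value with TMAO, and Nr4a3 (2.40 and 2.61), Sgk1 (1.88 and 2.16), Errfi1 (1.202 and 1.38) and Rgs2 (0.74 and 0.92) the larger. None of these differences was called (adjusted p = 0.9998 for each in edgeR).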

How the data were processed

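RNA from MIN6 cells was sequenced by the authors after poly-T selection and library preparation with the NEBNext Ultra kit. Per the labels and submitters' processing notes, the tools named are HISAT2 2.0.5, featureCounts 1.5.0-p3 and DESeq2 1.16.1, with build mm10. The annotation version and strand setting are not given in the sources used here. The authors deposited raw counts per gene and FPKM values, which scale them by transcript length and depth. Groups and replicate numbers come from the labels.

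The count table was tested with edgeR 4.0.16 under R 4.3.3 (filterByExpr, TMM, robust quasi-likelihood test, all 12 libraries in 4 condition means). The SE is the log2 fold change divided by the square root of F. The edgeR steps were tested on simulated counts. Alternatives used DESeq2 1.42.0, limma 3.58.1 on FPKM on the log2 scale with a pseudocount of 1 or 0.1, other filters, the replicate number as a block, and each library left out. Figures used matplotlib 3.10.9 in Python 3.11.15. Exon numbers come from GENCODE M21.

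Members and the 24 gene lists (680 genes) were chosen with earlier results of these data known. Named genes are, among called genes, the 15 largest rises and 10 largest falls with a mean of at least 50 counts and non-overlapping libraries, and the 5 largest FPKM differences each way. Further named genes are up to 4 called members of each list with the lowest p (or the one with the lowest p), 6 genes of insulin and glucose sensing (not all reported here), and the 3 lowest p for the difference between treatments. Other genes were named after their values were seen.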

Additional observations from a re-analysis of the deposited data

Results flagged for a closer look

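Otud7a, a deubiquitinase gene, and Fuk, the gene of fucokinase, were singled out because all 3 high-glucose libraries lay above all 3 low-glucose libraries with vehicle and below them with TMAO. Otud7a was at 17.8, 18.2 and 16.7 CPM in low and 21.3, 20.6 and 21.0 CPM in high glucose with vehicle, and at 18.7, 18.8 and 24.7 CPM and then 16.6, 16.5 and 16.2 CPM with TMAO. Its difference between the responses was -0.586 on the log2 scale (edgeR adjusted p = 0.614). Fuk was at 20.7, 21.3 and 22.1 CPM and then 24.9, 22.2 and 22.7 CPM with vehicle, and at 24.12, 24.98 and 25.47 CPM and then 21.2, 19.3 and 21.9 CPM with TMAO. For Fuk the difference was -0.384 (adjusted p = 0.9998), from 0.13 with vehicle and -0.26 with TMAO. Neither difference was called, and both genes were named because they were among the 3 with the lowest unadjusted p for the difference over 16222 genes. That choice favours opposite directions. With vehicle, 9.28% of all tested genes lay wholly higher in high glucose. The rises with vehicle were not called (edgeR adjusted p = 0.1496 for Otud7a and 0.5175 for Fuk), and the falls with TMAO were (0.03195 and 0.04575).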

How the results depend on the processing

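Main counts were 323 higher and 213 lower. They were 324 and 213 with DESeq2's size factors, 368 and 288 with no filter on low counts, 303 and 204 with at least 10 counts in every library, 366 and 231 with only the 6 vehicle libraries, 300 and 196 with DESeq2's Wald test and 272 and 149 with limma on log2(FPKM + 1). With the replicate block, they were 412 and 305. Same-numbered low- and high-glucose libraries did not deviate together (correlations -0.0146, 0.013 and -0.00226, and not every library correlated best with its own number), so the numbers were not treated as pairs. Leaving out 1 library gave 217 to 290 higher and 111 to 196 lower. A fold of at least 1.5 left 142 higher and 13 lower, and at least 2 left 78 and 1. The risers of at least 2-fold were 50 with 10 counts in every library and 29 with limma on log2(FPKM + 1), where the pseudocount shrinks low genes. For the difference between treatments (0 and 0), no filter gave 1 higher and 5 lower, DESeq2 gave 1 lower, and leaving out 1 library gave 0 to 2 lower (2 without TMAO high-glucose replicate 1). No called gene changed sign under these alternatives. Of 67 named calls, 53 were kept in all of them and 14 were lost without at least 1 library. Gapdh was called with only the 6 vehicle libraries (adjusted p = 0.0183).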
